A study of Mus musculus with 8 samples.

Results

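The mitochondrial genome is transcribed into its own small set of RNAs, and 37 of the 54532 gene identifiers in a count table from mouse lens capsules belong to it. They were chosen as every row whose symbol starts with mt-, and they comprise 2 ribosomal RNAs (rRNAs), 13 messenger RNAs (mRNAs) and 22 transfer RNAs (tRNAs), which are treated separately here. Capsules came from wild-type (WT) C57BL/6 mice 6 to 8 weeks old and were taken 7 days after surgery, with 4 libraries per group, each described by the submitters as a biological replicate. In the injury group, called ASC by the submitters and described as a model of fibrotic cataract, the anterior capsule was opened with a 26-gauge needle passed through the cornea. In the sham group only the cornea was cut. Both groups share strain, genotype, age and the corneal wound. The number of eyes or mice pooled per library is unknown from the labels. Lens epithelium markers were present throughout, with all 10 of them tested and their summed level at 147697 to 214970 CPM in sham and 152372 to 235642 CPM in ASC (CPM is a gene's counts scaled to a library of fixed effective size). Most of that sum is crystallin RNA. Of the 10 markers, 1 passed the test described below, Mab21l1, a gene of lens development, which fell from 147 ± 19.2 to 75.3 ± 7.89 CPM (log2 fold change -0.96, edgeR adjusted p = 0.00209; also called by DESeq2 and limma-voom). Library totals ran from 14420494 to 21141582 counts.

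Both strands of the compact circular genome are read as long precursors from which the rRNAs, mRNAs and tRNAs are cut, many of the cuts being made at tRNAs that lie between the longer genes. The mRNAs encode core subunits of respiratory complexes I, III and IV and of ATP synthase (complex V), and the rRNAs and tRNAs serve the mitochondrial ribosome that translates them. In the lens, mitochondria are a feature of the epithelium and of young fibres, and maturing fibre cells lose them. The libraries were made from RNA captured on poly-T beads. Most mitochondrial mRNAs carry poly-A tails, the rRNAs carry short A tails and mature tRNAs carry none. Each level below is therefore that of captured and counted RNA, and levels between the 3 classes are not cell contents.

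The sequences on which the results turn are given first, from GENCODE mouse release 21, 5′ to 3′. The 2 tRNAs that passed the test, mt-Tl1 (leucine, for UUR codons) and mt-Tc (cysteine), are shown with mt-Tn (asparagine), which lies beside mt-Tc, and mt-Tp (proline), the tRNA with the most counts. Capitals mark the 7 bases at each end that pair into the acceptor stem. All 7 pairs are complementary in mt-Tl1, mt-Tn and mt-Tp, and mt-Tc has 6 such pairs and 1 pair of G with T. The outer edges of these stems are where the precursor is cut, and mt-Tl1 also holds the site described for the transcription termination factor Mterf1.
mt-Tl1: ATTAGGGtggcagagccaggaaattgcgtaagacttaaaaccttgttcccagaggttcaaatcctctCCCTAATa
mt-Tc: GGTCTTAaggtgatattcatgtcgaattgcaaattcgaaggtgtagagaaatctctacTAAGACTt
mt-Tn: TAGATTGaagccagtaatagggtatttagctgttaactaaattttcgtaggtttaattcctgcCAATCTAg
mt-Tp: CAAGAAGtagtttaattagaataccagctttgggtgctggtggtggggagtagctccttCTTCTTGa

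The large rRNA mt-Rnr2 is shown around its longest run of A, in capitals, over bases 355 to 441 of 1582, since the libraries were selected with poly-T. The run held 7 A, which is not the longest, since mt-Nd2 and mt-Tr each have a run of 8. Within any 20 bases, the highest number of A was 16 in mt-Rnr2 and 15 in mt-Rnr1, against at most 14 in an mRNA and at most 12 in a tRNA.
mt-Rnr2: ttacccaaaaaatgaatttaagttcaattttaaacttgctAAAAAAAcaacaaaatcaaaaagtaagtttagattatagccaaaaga

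Of the mRNAs, mt-Nd3 is shown beside the nuclear transcript Gm28438, which repeats nearly all of it. The first 120 bases differ at 1 position, in capitals (T3C, counted from the first base of mt-Nd3). Reads from such a pair can be told apart only where they cover a difference.
mt-Nd3: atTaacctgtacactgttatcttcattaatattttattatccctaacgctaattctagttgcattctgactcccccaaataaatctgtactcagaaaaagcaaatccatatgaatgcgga
Gm28438: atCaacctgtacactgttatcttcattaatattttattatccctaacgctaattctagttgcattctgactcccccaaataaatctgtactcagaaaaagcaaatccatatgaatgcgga

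All mitochondrial genes together held 1.56, 2.19, 2.03 and 1.69% of the counts in sham libraries 1 to 4 and 1.97, 2.18, 2.11 and 1.90% in ASC libraries 1 to 4. The means were 1.87 ± 0.293% and 2.04 ± 0.131% (SD, n = 4), and the ranges overlapped, with sham 2 the highest of the 8 libraries. Nearly all of it was mRNA, at 1.52, 2.13, 1.98 and 1.65% in sham and 1.90, 2.10, 2.02 and 1.81% in ASC. The rRNA share was far smaller and did not overlap between groups, at 0.0370, 0.0553, 0.0420 and 0.0314% in sham and 0.0630, 0.0754, 0.0798 and 0.0742% in ASC. The tRNAs drew only 481 to 1025 counts in a sham library and 760 to 1185 in an ASC library. In bulk libraries such as these, fewer cells of a type and less RNA per cell cannot be told apart.

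Of the 37 genes, 26 had enough counts to be tested (2 rRNAs, 12 mRNAs and 12 tRNAs). The test was edgeR's quasi-likelihood F test across 15857 genes, with Benjamini-Hochberg adjustment and a threshold of 0.05. It called 3 mitochondrial genes, mt-Rnr2, mt-Tl1 and mt-Tc, all higher in ASC. Of all tested genes 1.02% were called, 0.631% as higher and 0.391% as lower in ASC (100 higher and 62 lower, or 75 and 70 with scaling by library totals). An unadjusted p under 0.05 was reached by 7 of the 26 (1 rRNA, no mRNA and 6 tRNAs), against 14.7% of all genes. In 4 of the 26 (mt-Rnr2, mt-Tl1, mt-Tn and mt-Tc) every ASC library was above every sham library, an arrangement found in 3.39% of all genes, and in none was every ASC library below. The log2 fold change (ASC over sham) was positive in 25 of 26, against 51.4% of all genes. Its median was 0.70 for the rRNAs, 0.26 for the tested mRNAs, 1.02 for the tested tRNAs and 0.008 for all genes.

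**Figure D1:**
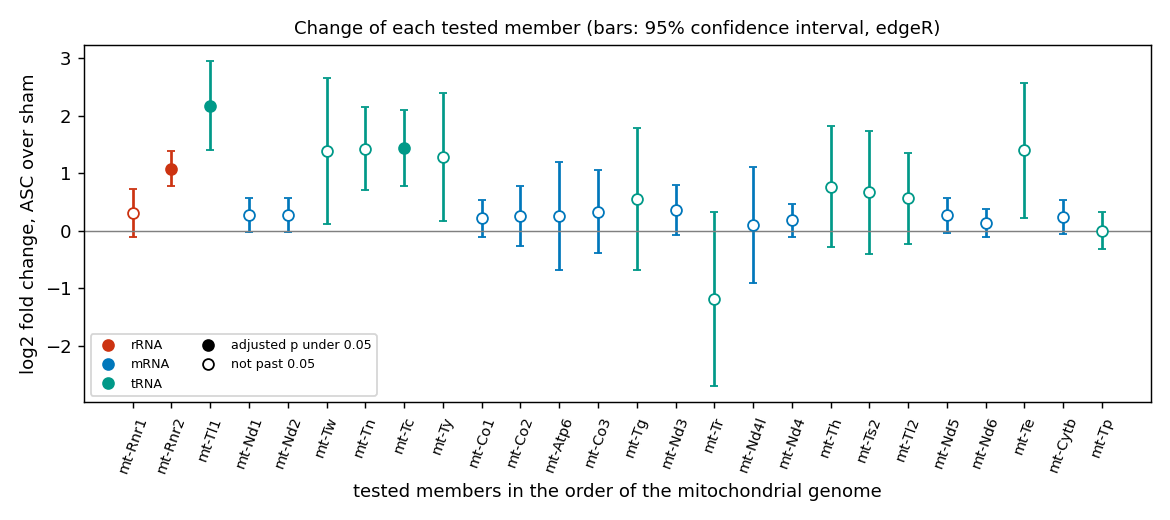
Log2 fold change of ASC over sham (vertical axis) for the 26 tested mitochondrial genes in their order along the genome, with bars for the 95% confidence interval from edgeR; colours mark the class, and filled points passed an adjusted p of 0.05. The filled points are mt-Rnr2 at 1.08, mt-Tl1 at 2.18 and mt-Tc at 1.44, and the mRNAs lie between 0.11 and 0.36.

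The large rRNA rose about 2.12-fold in ASC, and the small rRNA did not pass the test. mt-Rnr2 (ENSMUSG00000064339), the RNA of the large mitoribosomal subunit that forms its peptidyl transferase centre, was counted at 305, 401, 285 and 262 CPM in sham libraries 1 to 4 and at 646, 625, 751 and 633 CPM in ASC libraries 1 to 4. Every ASC library was above every sham library, and the lowest ASC value lay well over the highest sham value, that of sham 2. The means were 313 ± 61.1 and 664 ± 58.8 CPM (SD, n = 4), a log2 fold change of 1.08 (SE 0.14, 95% interval 0.78 to 1.39, edgeR adjusted p = 0.00302), which ranked 28 among all genes by p. The call was kept in all 20 alternative analyses, with log2 fold changes from 0.85 to 1.22. The value of 0.85 (edgeR adjusted p = 0.0099) came with libraries scaled to their summed mitochondrial mRNAs, so the rise was also a rise relative to those mRNAs. That alternative was chosen after seeing the data, and it moves the median of all genes to -0.23.

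mt-Rnr1 (ENSMUSG00000064337), the RNA of the small subunit, was counted at 61.1, 108, 79.2 and 75.8 CPM (sham) and 83.5, 88.6, 130 and 99.96 CPM (ASC). The groups overlapped, with sham 2 above ASC 1, ASC 2 and ASC 4. The means were 81.1 ± 19.7 and 100 ± 20.6 CPM, a log2 fold change of 0.31 (SE 0.19, 95% interval -0.11 to 0.73, edgeR adjusted p = 0.487). Its interval and that of mt-Rnr2 did not overlap. Relative to the mitochondrial mRNAs its log2 fold change was 0.09 (edgeR adjusted p = 0.748).

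The ratio of the rRNAs within a library did not overlap between groups. Counts of mt-Rnr2 were 5.00, 3.70, 3.60 and 3.45 times those of mt-Rnr1 in sham libraries 1 to 4, and 7.74, 7.05, 5.80 and 6.34 times in ASC libraries 1 to 4. The lowest ASC ratio, in ASC 3, was above the highest sham ratio, in sham 1. Per 100 mitochondrial mRNA counts, mt-Rnr2 had 2.03, 2.04, 1.66 and 1.47 counts in sham and 2.94, 3.14, 3.36 and 3.53 in ASC, without overlap. For mt-Rnr1 the same measure was 0.407, 0.552, 0.461 and 0.427 in sham and 0.379, 0.445, 0.580 and 0.558 in ASC, with overlap. These ratios are given as descriptions, and the difference between the changes of the 2 rRNAs was not tested.

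**Figure D2:**
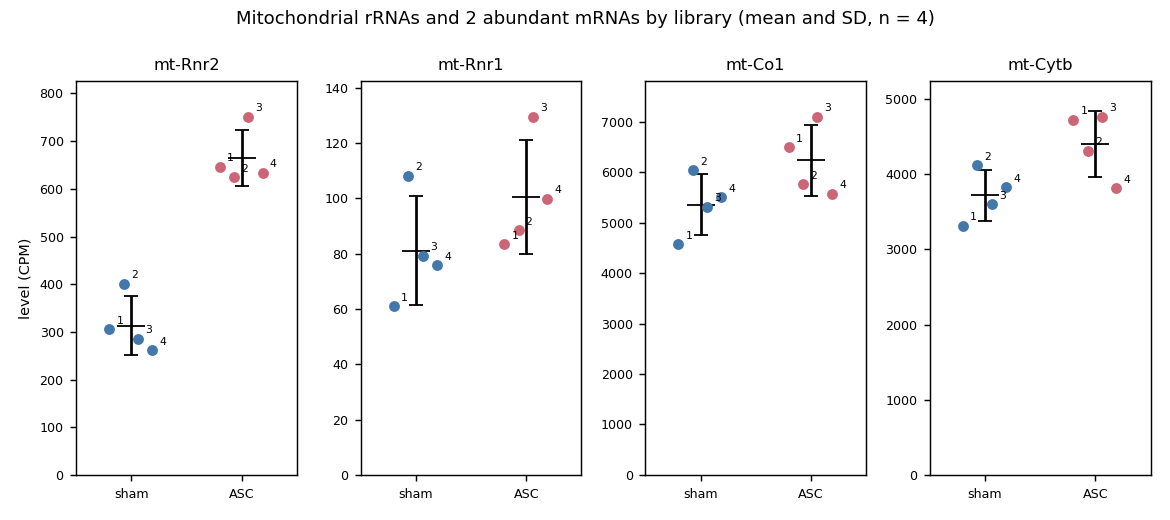
Level in CPM (vertical axes, each starting at 0) of mt-Rnr2, mt-Rnr1, mt-Co1 and mt-Cytb in each library; numbered points are libraries, and bars show the mean and SD of 4. mt-Rnr2 separates sham (262 to 401) from ASC (625 to 751), while the other 3 genes overlap between groups.

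Several markers of other cells and a list of nuclear RNAs described as lacking poly-A tails are set beside this result. Over all genes, 14.7% reached an unadjusted p under 0.05, DESeq2 called 572 of 17961 and limma-voom called 160 of 15857. Summed red cell markers (hemoglobins and Alas2, 5 of 5 tested, none at 0) were at 40.1 to 62.8 CPM in sham and 73.9 to 370 CPM in ASC, without overlap. None of the 5 passed the edgeR test (5 at an unadjusted p under 0.05, DESeq2 4, limma-voom 0). Hbb-bs and Hba-a1 had log2 fold changes of 2.06 and 1.94. Muscle markers summed to 5.95 to 9.76 CPM in sham and 14.4 to 58.5 CPM in ASC, also without overlap, with 5 of 10 tested and none passing edgeR (1 at an unadjusted p under 0.05, DESeq2 1, limma-voom 0). Myh11 and Ckm had log2 fold changes of 3.65 and 0.18. The gap between the muscle sums rested on Myh11. It gave 10.4 of the 16.4 CPM in ASC 2, against 1.68 of the 9.76 CPM in sham 2, and without it the sums overlapped. ASC 3, the library highest for mt-Rnr2, was the lowest ASC library for the red cell markers, at 73.9 CPM. ASC 3 was also the highest for the muscle markers, at 58.5 CPM, of which 50.5 CPM was Myh11. Sums of the photoreceptor, pigment cell, corneal, macrophage, fibroblast, endothelial and lens fibre markers overlapped between groups. Among them the corneal keratins Krt5 (log2 fold change 3.52) and Krt12 (3.19) and Col1a1 (1.53), a collagen of the fibroblast list, passed the test. The corneal markers were positive in 4 of 4 tested (median 1.88, 2 at an unadjusted p under 0.05, DESeq2 2, limma-voom 1). The fibroblast markers were positive in 4 of 6 tested (median 0.73, 3 at an unadjusted p under 0.05, DESeq2 1, limma-voom 1). Their sum was 483 to 542 CPM in sham and 439 to 558 CPM in ASC. The lens fibre markers were positive in 11 of 12 (median 0.48), and none passed edgeR (4 at an unadjusted p under 0.05, DESeq2 3, limma-voom 1), with Crybb2 and Cryba1 both at 0.16. The pigment cell markers were positive in 6 of 7 (median 1.87), and none passed edgeR (5 at an unadjusted p under 0.05, DESeq2 2, limma-voom 0), with Dct at 1.74 and Oca2 at -0.21. The photoreceptor markers were positive in 10 of 10 (median 0.50), with Gnat1 at 0.76, and none passed (0 at an unadjusted p under 0.05, DESeq2 0, limma-voom 0). The macrophage markers were positive in 10 of 11 (median 0.87), with Lyz2 at 0.72 and Csf1r at 0.94, and none passed (1 at an unadjusted p under 0.05, DESeq2 0, limma-voom 0). The endothelial markers were positive in 2 of 4 (median 0.07), with Kdr at -0.03 and Vwf at -0.25, and none passed (0 at an unadjusted p under 0.05, DESeq2 0, limma-voom 0). Nuclear RNAs listed as lacking a poly-A tail, mainly replication histones, were at 175 to 234 CPM in sham and 222 to 262 CPM in ASC. Of 83, 13 were tested and 22 had no counts in any library. Their median log2 fold change was 0.05 and none was called (2 at an unadjusted p under 0.05, DESeq2 0, limma-voom 0). The most abundant, Hist1h1c and Hist1h2bc, had log2 fold changes of 0.36 and 0.20. They averaged 88.3 and 47.3 CPM in sham, and whether these counts came from RNA without a tail was not tested. The part of all these markers and RNAs in the mitochondrial results was not tested.

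The mRNAs were slightly higher in ASC on average, and none passed the test. Of the 12 tested, 0 passed edgeR's adjusted threshold, 0 reached an unadjusted p under 0.05, and 0 were called by DESeq2, by limma-voom or in any other alternative. Log2 fold changes ran from 0.11 to 0.36 and all 12 were positive, but scaling by library totals left 11 positive with a median of 0.12, while the median of all genes was -0.12. Every mRNA overlapped between groups. Sham 1 was the lowest sham library for all 12. Without sham 1 the median log2 fold change was 0.13 with 11 positive, and without ASC 1 it was 0.20 with 11 positive. On leaving out any other library all 12 stayed positive, with medians of 0.25 to 0.32.

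The most abundant mRNA was mt-Co1, which encodes the catalytic subunit of cytochrome c oxidase (complex IV). It was counted at 4571, 6047, 5323 and 5504 CPM (sham) and 6500, 5771, 7102 and 5575 CPM (ASC), and sham 2 was above ASC 2 and ASC 4. The means were 5361 ± 610 and 6237 ± 701 CPM, a log2 fold change of 0.22 (SE 0.15, edgeR adjusted p = 0.532). mt-Cytb, the cytochrome b subunit of complex III, was at 3315, 4121, 3604 and 3830 CPM (sham) and 4728, 4311, 4764 and 3817 CPM (ASC). ASC 4 lay below sham 2 and sham 4 for this gene, and its log2 fold change was 0.24 (edgeR adjusted p = 0.443).

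Complex I takes 7 mitochondrial subunits, all of them parts of its proton-pumping membrane arm. mt-Nd1 was at 2300, 3029, 2505 and 2621 CPM (sham) and 3321, 3309, 3317 and 2725 CPM (ASC). ASC 1 to 3 were close together above every sham library, and ASC 4 lay below sham 2. Its log2 fold change was 0.28 (SE 0.14, edgeR adjusted p = 0.381). mt-Nd2 went from 1635 ± 158 to 1984 ± 242 CPM (log2 fold change 0.28, edgeR adjusted p = 0.370), the smallest p among the mRNAs. mt-Nd5 was at 1994 ± 265 and 2405 ± 247 CPM, and mt-Nd4 at 1432 ± 155 and 1625 ± 186 CPM, with log2 fold changes of 0.27 and 0.18. mt-Nd6, the only mRNA read in the opposite direction, was at 540 ± 58.0 and 593 ± 46.5 CPM, a log2 fold change of 0.14. Its annotation overlaps mt-Nd5 by 14 bases on the other strand, and the labels do not say whether the counting used strand.

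The remaining complex I mRNAs were much lower. mt-Nd3 was at 12.996 ± 2.90 CPM (sham) and 16.7 ± 3.82 CPM (ASC), with a log2 fold change of 0.36 (SE 0.20, edgeR adjusted p = 0.427), the highest of the mRNAs. mt-Nd4l, which overlaps mt-Nd4 by 7 bases, was at 5.82 ± 2.60 and 6.26 ± 3.23 CPM, and its log2 fold change of 0.11 (SE 0.45) turned negative without sham 1 (-0.17) or ASC 1 (-0.29).

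The other complex IV mRNAs were low as well. mt-Co2, which carries the copper site that accepts electrons from cytochrome c, was at 20.7, 45.4, 39.2 and 43.2 CPM (sham) and 51.5, 46.8, 43.1 and 36.7 CPM (ASC). Only sham 1 lay below all ASC libraries. The log2 fold change was 0.26 (edgeR adjusted p = 0.654). mt-Co3 was at 19.8 ± 7.48 and 24.9 ± 4.46 CPM. Of the ATP synthase mRNAs, mt-Atp6, part of the proton channel, was at 24.4 ± 10.2 and 29.2 ± 9.95 CPM, and its log2 fold change was 0.26 (edgeR adjusted p = 0.816). mt-Atp8 overlaps mt-Atp6 by 43 bases and had 2, 3, 5 and 9 counts in sham and 5, 9, 6 and 9 counts in ASC, too few to be tested.

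**Figure D3:**
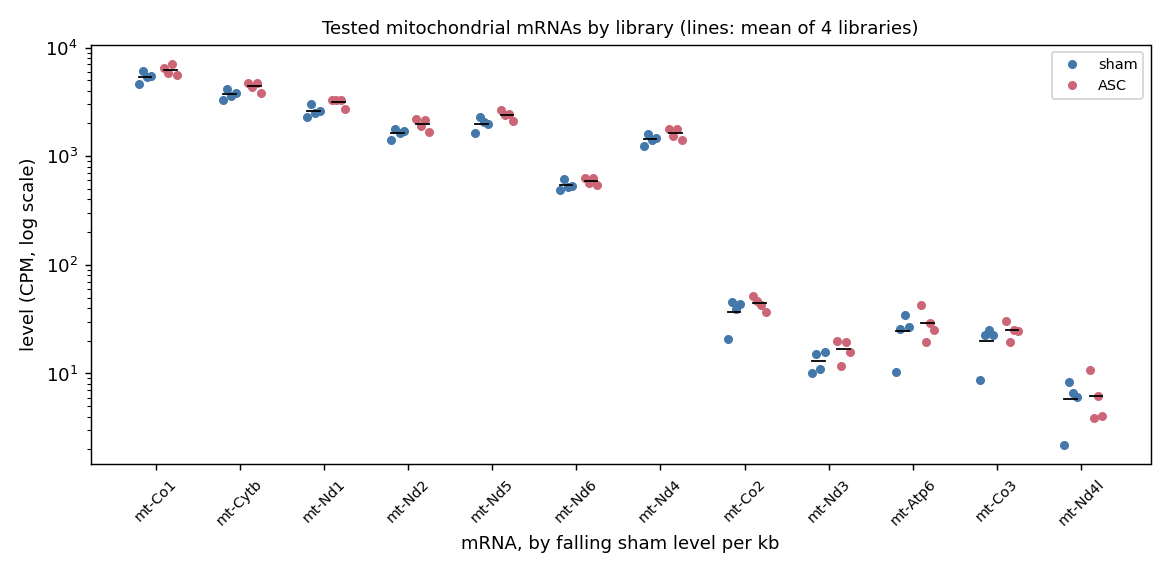
Level in CPM (logarithmic vertical axis) of the 12 tested mitochondrial mRNAs in each library, ordered by falling sham level per kb; points are libraries and lines are means of 4. Sham and ASC overlap for every mRNA, and the 5 at the right lie far below the other 7.

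The makeup of the mitochondrial counts was close between groups for the mRNAs of the 4 complexes, but not for the rRNAs and tRNAs. Complex I mRNAs made up 46.2 ± 0.240% of mitochondrial counts in sham and 45.9 ± 1.24% in ASC, complex III 20.9 and 20.6%, complex IV 30.4 and 29.5%, and complex V 0.136 and 0.138%. These are shares of counted reads, and the counts of mRNAs with nuclear copies, described below, are uncertain. The rRNAs went from 2.21 ± 0.299 to 3.59 ± 0.324%, with sham libraries at 1.86 to 2.52% and ASC libraries at 3.199 to 3.92%. The tRNAs went from 0.213 ± 0.0173 to 0.301 ± 0.0785%, with 0.211, 0.237, 0.206 and 0.197% in sham and 0.331, 0.1998, 0.288 and 0.386% in ASC, where ASC 2 alone lay within the sham range.

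Counted levels differed widely between the mRNAs, all of which except mt-Nd6 are read in the same direction. Levels between genes are compared per length, as CPM per kb in sham. mt-Co1 was highest at 3470 ± 395, with mt-Cytb at 3250 ± 299 and mt-Nd1 at 2731 ± 321, and neighbours in this order overlapped. mt-Nd2 followed at 1576 ± 152, clear of its neighbours, then mt-Nd5 at 1093 ± 145, mt-Nd6 at 1041 ± 112 and mt-Nd4 at 1039 ± 112, which overlapped. The rRNA mt-Rnr2, at 198 ± 38.6, lay below these and above the rest. mt-Rnr1 (84.9 ± 20.7), mt-Co2 (54.3 ± 16.4), mt-Nd3 (37.3 ± 8.35), mt-Atp6 (35.8 ± 15.04), mt-Co3 (25.2 ± 9.54) and mt-Nd4l (19.6 ± 8.77) formed a chain in which each overlapped the next. mt-Atp8 was last at 1.40 ± 1.29 and below all of them.

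The 5 low mRNAs were also those repeated in full by nuclear transcripts. All 50-base words of each mRNA were looked up on both strands in 141730 annotated transcripts of other chromosomes. The share found was 100% for mt-Co2, 99.9% for mt-Co3, 99.5% for mt-Atp6, 98.8% for mt-Nd4l and 98.0% for mt-Nd3. It was 62.2% for mt-Nd4, 51.1% for mt-Co1, 8.19% for mt-Nd2 and 7.61% for mt-Nd5, and 0% for mt-Nd1, mt-Nd6, mt-Cytb and mt-Atp8. It was 1.04% for mt-Rnr2 and 0% for mt-Rnr1 and for every tRNA.

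Among the tested mRNAs, the 5 with shares of 98.0% or more had sham levels of 19.6 to 54.3 CPM per kb, and the lowest of the other 7 was 19.1 times the highest of these 5. mt-Atp8, which had too few counts to be tested, was lower still with a share of 0%. The coefficient of variation over the 4 sham libraries was 22.3 to 44.8% in the 5 and 9.20 to 13.3% in the other 7. Annotated transcripts alone were searched, since no genome sequence was used here.

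The nuclear copies themselves drew counts. Gm28661, identical to mt-Co2 over 681 aligned bases, had 4989 counts over the 8 libraries against 5762 for mt-Co2. Gm10925, identical to mt-Atp6 over 678 bases, had 3521 against 3757, and Gm28437, identical to mt-Co3 over 783 bases, had 1723 against 3130. Gm10222, identical to mt-Nd4l over 294 bases, had 564 against 855, and Gm28438 had 444 against 2076 for mt-Nd3. The copies of part of mt-Nd4 (Gm28439) and of part of mt-Co1 (Gm29216) had 1641 and 1171 counts against 217493 and 824506. Reads from identical sequences cannot be assigned to either gene by their letters, and the labels do not say how reads with several matching places were counted. The levels of the 5 mRNAs repeated in full are therefore uncertain, and so in part are those of mt-Nd4 and mt-Co1. The part of the copies in the low counts of the 5 was not tested.

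**Figure D4:**
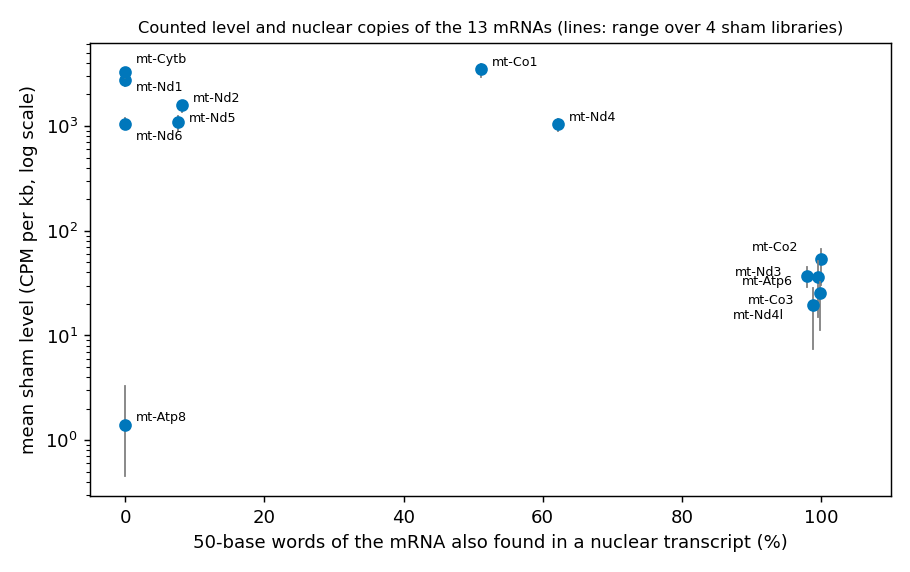
Mean sham level in CPM per kb (logarithmic vertical axis) against the percent of 50-base words that a nuclear transcript also holds, for the 13 mitochondrial mRNAs; vertical lines span the 4 sham libraries. The 5 mRNAs at 98.0% or more lie between 19.6 and 54.3 CPM per kb. mt-Atp8 is lowest with 1.40, at 0% by words longer than its overlap with mt-Atp6.

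The tRNAs were higher in most ASC libraries, and 2 of the 12 tested passed. Together they stood at 38.1 ± 6.72 CPM (sham) and 64.0 ± 15.6 CPM (ASC), with libraries at 32.5, 47.9, 36.2 and 35.8 CPM and at 75.6, 41.3, 67.1 and 72.2 CPM. ASC 2 fell within the sham range and the other ASC libraries lay above it. tRNA genes of 59 to 75 bases are shorter than the 370 to 420 bp fragments selected for the libraries, and the counts do not separate a mature tRNA from longer RNA that contains its sequence.

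mt-Tl1 (ENSMUSG00000064340) lies directly between mt-Rnr2 and mt-Nd1, with no base between it and either. It had 43, 47, 38 and 30 counts in sham libraries 1 to 4 and 167, 62, 196 and 181 counts in ASC libraries 1 to 4. This corresponded to 2.01, 2.19, 1.84 and 2.23 CPM in sham and 10.6, 3.37, 11.3 and 12.2 CPM in ASC. All ASC libraries were above all sham libraries, ASC 2 only narrowly. The means were 2.07 ± 0.181 and 9.39 ± 4.07 CPM, 4.53-fold, with a log2 fold change of 2.18 (SE 0.35, 95% interval 1.40 to 2.96, edgeR adjusted p = 0.0186).

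The direction for mt-Tl1 held in all 20 alternatives (log2 fold change 1.94 to 2.46), and it was called in 13. The call was lost with limma-voom (adjusted p = 0.0859) and, in edgeR, on removal of any 1 sham library (adjusted p = 0.0777, 0.0813, 0.0609 and 0.0639 for sham 1 to 4), of ASC 3 (0.0534) or of ASC 4 (0.0562). Per 10000 mitochondrial mRNA counts there were 1.34, 1.12, 1.07 and 1.26 mt-Tl1 counts in sham and 4.84, 1.69, 5.08 and 6.82 in ASC. With libraries scaled to the mitochondrial mRNAs its log2 fold change was 1.94 (edgeR adjusted p = 0.0153). Its neighbours mt-Rnr2 and mt-Nd1 had log2 fold changes of 1.08 and 0.28.

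mt-Tc (ENSMUSG00000064349) is read in the direction opposite to the rRNAs. It had 35, 73, 33 and 25 counts in sham and 63, 97, 104 and 118 in ASC, or 1.64, 3.41, 1.60 and 1.86 CPM and 4.02, 5.27, 6.02 and 7.96 CPM. The groups did not overlap, and sham 2 was well above the other sham libraries. The mean rose from 2.13 ± 0.863 to 5.82 ± 1.65 CPM, 2.72-fold, with a log2 fold change of 1.44 (SE 0.30, 95% interval 0.78 to 2.10, edgeR adjusted p = 0.0466). It was called in 11 of 20 alternatives, with log2 fold changes of 1.25 to 1.77. The call was lost with library totals (edgeR adjusted p = 0.0861), a CPM filter (0.0530) and a fit that was not robust (0.0550), and on removal of sham 1 (0.121), of sham 3 (0.0952), of sham 4 (0.115), of ASC 2 (0.0544), of ASC 3 (0.129) or of ASC 4 (0.121).

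mt-Tn lies 32 bases from mt-Tc on the same strand. It had 44, 75, 23 and 19 counts in sham and 70, 121, 84 and 91 in ASC. The CPM values were 2.06, 3.50, 1.11 and 1.41 in sham and 4.46, 6.57, 4.86 and 6.14 in ASC, again without overlap, but its log2 fold change of 1.43 (SE 0.33) did not pass (edgeR adjusted p = 0.0652). It was called in 4 of 20 alternatives: DESeq2 (adjusted p = 0.00224), no low-count filter (4.6e-05), a replicate block (0.0388) and without sham 2 (0.0307, log2 fold change 1.83). mt-Te, for glutamate, was at 1.83, 3.13, 3.87 and 2.16 CPM (sham) and 9.12, 1.63, 7.58 and 11.001 CPM (ASC). ASC 2 was below every sham library and the other ASC libraries were above all of them. Its log2 fold change was 1.40 (edgeR adjusted p = 0.261), or 1.73 without ASC 2 (edgeR adjusted p = 0.00722). It was also called by DESeq2 (adjusted p = 0.0419) and by edgeR without a low-count filter (0.0253).

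The next tRNAs in size of change were mt-Tw (tryptophan), from 0.657 to 1.78 CPM on average, and mt-Ty (tyrosine), from 0.795 to 2.00 CPM, with log2 fold changes of 1.39 and 1.28. mt-Th (histidine), mt-Ts2 (serine), mt-Tl2 (leucine) and mt-Tg (glycine) had log2 fold changes of 0.77, 0.67, 0.57 and 0.56. mt-Tp, with 2581 counts the best measured tRNA, was at 17.3, 20.6, 17.4 and 16.1 CPM (sham) and 22.3, 18.3, 17.99 and 13.2 CPM (ASC). ASC 1 was its highest and ASC 4 its lowest library, and the means of 17.9 ± 1.95 and 17.9 ± 3.69 CPM gave a log2 fold change of 0.01. mt-Tr (arginine) was the only tested member with a negative log2 fold change, -1.18 (SE 0.70, edgeR adjusted p = 0.464), with 6, 30, 16 and 13 counts in sham and 10, 10, 5 and 0 in ASC.

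**Figure D5:**
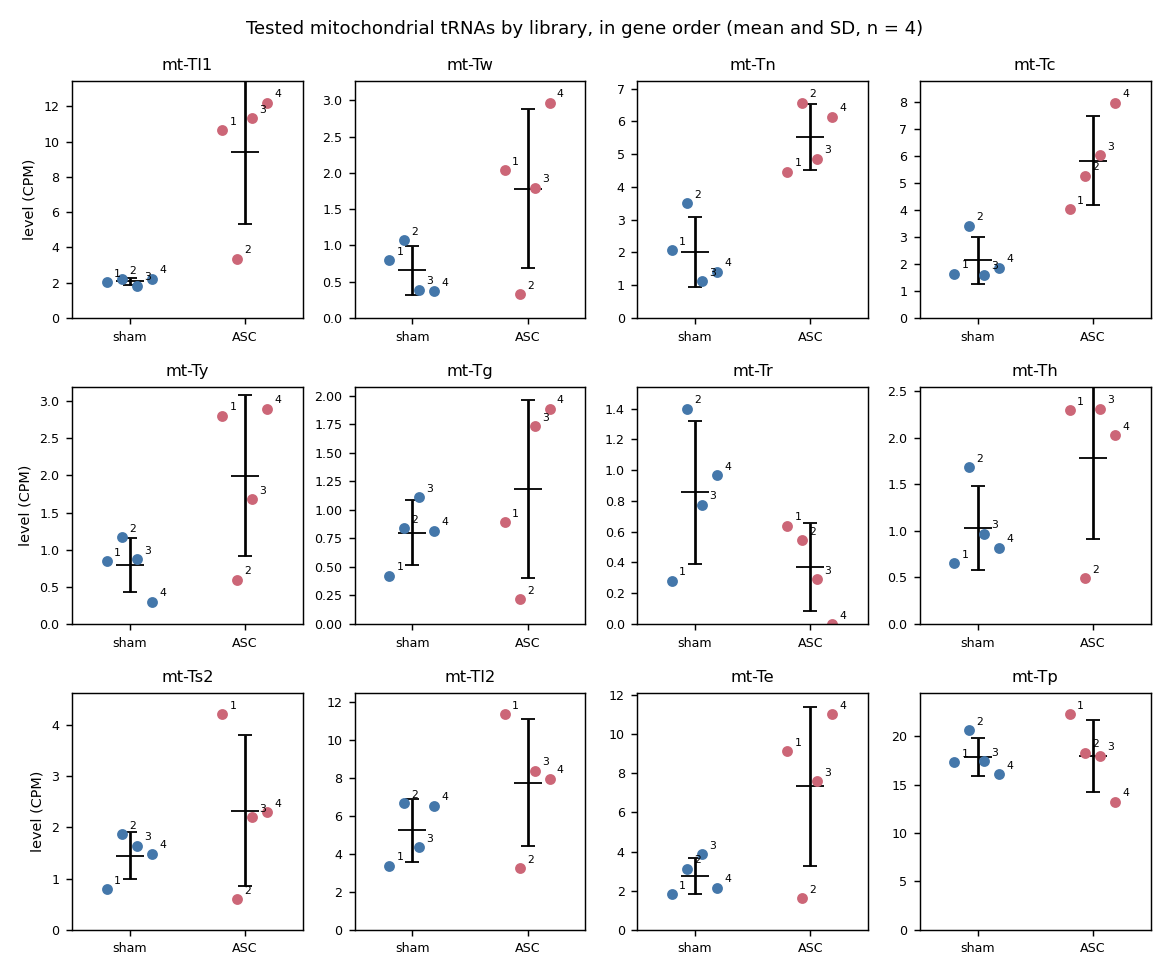
Level in CPM (vertical axes, each starting at 0) of the 12 tested mitochondrial tRNAs in each library; numbered points are libraries, and bars show the mean and SD of 4. mt-Tl1, mt-Tn and mt-Tc separate sham from ASC, and ASC 2 is the lowest ASC library for 8 of the 12.

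ASC 2 stood apart from the other ASC libraries for the tRNAs. It was the lowest ASC library for 8 of the 12 tested tRNAs and lay at or below the highest sham library for 9. ASC 1, 3 and 4 were all above every sham library for 9 of the 12. For mt-Tn, in contrast, ASC 2 was the highest ASC library. By direction of transcription, tRNAs read with the rRNAs went from 12.5 ± 3.18 to 25.2 ± 11.01 CPM, with ASC 2 at 8.85. Those read in the opposite direction went from 25.6 ± 4.34 to 38.9 ± 4.68 CPM. In CPM every ASC library was above every sham library, but only narrowly, with ASC 2 at 32.4 and sham 2 at 31.8. As a percent of library counts the groups overlapped, with sham 2 at 0.00346% and ASC 2 at 0.00343%. The labels do not say whether the counting used strand, so reads counted for these tRNAs need not come from their strand. ASC 2 was also the lowest ASC library for lens fibre markers, at 94858 CPM against 106046 to 156963 CPM, and for corneal markers, at 351 CPM against 569 to 951 CPM. The part of these in the tRNA levels was not tested.

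The other 10 tRNAs had at most 7 counts in a library and 29 in all, while each tested tRNA had at least 90. mt-Tf (phenylalanine) and mt-Ts1 (serine) had 0 counts in all 8 libraries, which allows a level of up to 0.223 CPM in the shallowest library (3 counts, counting error only). The same floor for mt-Tr in ASC 4 was 0.202 CPM.

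Nuclear genes that make, process or use these RNAs were tested in the same fit, and none in the lists for these steps passed. The counts for each list stand against those of all genes. Of all genes 14.7% reached an unadjusted p under 0.05, DESeq2 called 572 of 17961 and limma-voom called 160 of 15857. Of 9 tested genes for mitochondrial transcription none was called (1 at an unadjusted p under 0.05, DESeq2 0, limma-voom 0). The sign was positive in 1 of them, and the median log2 fold change was -0.24. Their summed level was 95.1 to 108 CPM in sham and 81.5 to 89.9 CPM in ASC, without overlap. Tfam, which packages and helps transcribe the genome, had a log2 fold change of -0.15, and Mterf3 one of -0.24. Of 12 genes for replication and the nucleoid none was called (0 at an unadjusted p under 0.05, DESeq2 0, limma-voom 0), with a median of -0.10, and of the 2 most abundant Tk2 was at -0.18 and Atad3a at 0.07.

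The 24 genes for RNA processing and stability had a median of -0.02 and none was called (4 at an unadjusted p under 0.05, DESeq2 1, limma-voom 0). Hsd17b10, a subunit of the enzyme that cuts the 5′ ends of mitochondrial tRNAs, had a log2 fold change of 0.08, and the RNA-degrading enzyme Rexo2 one of 0.27. The 79 mitoribosome proteins, partners of the rRNAs, had a median of 0.03 and no call (7 at an unadjusted p under 0.05, DESeq2 1, limma-voom 0), with Mrps6 at -0.01 and Mrpl30 at 0.32. Among 22 aminoacyl-tRNA synthetases none was called (2 at an unadjusted p under 0.05, DESeq2 0, limma-voom 0), with a median of -0.11, Lars2 at -0.31 and Kars at 0.21. For 13 translation factors the median was -0.06 with no call (1 at an unadjusted p under 0.05, DESeq2 0, limma-voom 0), and Tufm was at 0.06 and Oxa1l at 0.00.

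Nuclear subunits of the complexes that the mitochondrial mRNAs also build had positive medians, as the mRNAs did. The log2 fold change was positive in 33 of 39 tested complex I subunits (median 0.17), 9 of 9 of complex III (0.18), 13 of 14 of complex IV (0.20) and 16 of 16 of complex V (0.15). For complex II, which has no mitochondrial subunit, it was positive in 4 of 4 (0.05). None was called in complex II or V (0 at an unadjusted p under 0.05 by edgeR, DESeq2 0, limma-voom 0) or in complex III (2 at an unadjusted p under 0.05, DESeq2 0, limma-voom 0). Atp5b, the catalytic subunit of ATP synthase, was at 0.20 and Atp5a1 at 0.07, Uqcrh and Uqcrc2 of complex III were both at 0.18, and Sdha and Sdhb of complex II were at 0.05 and 0.22. One gene passed, Ndufa4, listed under both complex I and complex IV, which rose from 53.3 ± 6.83 to 77.3 ± 7.64 CPM (log2 fold change 0.54, edgeR adjusted p = 0.042). In complex I, 9 of 39 reached an unadjusted p under 0.05, against 14.7% of all genes, and DESeq2 called 3 and limma-voom 1. In complex IV, 4 of 14 reached an unadjusted p under 0.05, and DESeq2 called 2 and limma-voom 0. Genes of mitochondrial mass and import had a median of 0.07 with none of 16 called (1 at an unadjusted p under 0.05, DESeq2 1, limma-voom 0), with the outer membrane channel Vdac1 at 0.08 and the import receptor Tomm20 at 0.17. Of 12 biogenesis regulators none was called (2 at an unadjusted p under 0.05, DESeq2 0, limma-voom 0), and the median was 0.004, with Yy1 at 0.13 and Gabpa at -0.00091. Of 13 genes for mitophagy and for fission or fusion none was called (3 at an unadjusted p under 0.05, DESeq2 1, limma-voom 0), with a median of 0.14 and with the mitophagy receptor Bnip3l at -0.02 and the adaptor Sqstm1 at 0.36. Among 9 tested mitochondrial stress response genes 1 passed, the secreted factor Gdf15, with a log2 fold change of 3.53, against 1.02% of all genes called. It was the only one of the list at an unadjusted p under 0.05 (DESeq2 1, limma-voom 1). The sign was positive in 5 of the 9, and the median was 0.06. The summed level of the list overlapped between groups, at 1014 to 1236 CPM in sham and 1003 to 1265 CPM in ASC.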

How the data were processed

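RNA was extracted with Trizol and selected on poly-T beads, per the labels' protocols. The authors deposited 1 table of whole-number read counts per gene. CASAVA, fastp, HISAT2 2.0.5 and featureCounts 1.5.0-p3 are named in the submitters' processing notes. Genome build, annotation, strand and multi-mapping settings: not given in the sources used here. No coordinates are printed. All 8 count columns were used, and 54409 of 54532 identifiers had a symbol.

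Counts were filtered with filterByExpr, scaled by TMM and tested with edgeR 4.0.16 in R 4.3.3 (robust quasi-likelihood F test, all 8 libraries, no covariate, Benjamini-Hochberg over 15857 genes). The SE is the log2 fold change divided by the square root of F. CPM used the TMM-scaled library size. Lengths and sequences came from GENCODE mouse release 21. The fit was tested on simulated data. DESeq2 1.42.0, limma 3.58.1 (voom with quality weights), other scalings and filters, a replicate block and leaving out each library were alternatives.

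The members and gene lists were chosen with earlier results of these data known. All rRNAs, mRNAs and tested tRNAs are named; each list names its called genes, otherwise its 2 most abundant tested genes, of which 1 is not reported here. P-values measure the spread between these libraries. Reads carried no molecular identifiers, so limits cover counting error only.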

Additional observations from a re-analysis of the deposited data

Results flagged for a closer look

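With 60 groups of 4 libraries examined for a library standing far from the rest, chance marks a share of about 0.05 of them, and 4 were marked. The measure is the gap of the end library to its nearest neighbour over the group's range, tested by Dixon's rule. For mt-Rnr2 in ASC it was 0.83, from ASC 3 at 751 CPM against 625 to 646 CPM in the others. For mt-Nd1 in ASC it was 0.979, from ASC 4 at 2725 CPM against 3309 to 3321 CPM. For mt-Tc in sham it was 0.855, from sham 2 at 3.41 CPM against 1.60 to 1.86 CPM. For mt-Th in ASC it was 0.841, from ASC 2 at 0.489 CPM against 2.02 to 2.31 CPM.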

How the results depend on the processing

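The count of all genes called was 162 and rose to 572 with DESeq2 and 712 without a low-count filter, and 5 rather than 3 mitochondrial genes were called with either, mt-Tn and mt-Te being added. Leaving out 1 library at a time gave 56 to 228 genes and 1 to 3 mitochondrial genes. The counts were 56 without sham 2, 67 without sham 4 or ASC 4, 72 without ASC 3, 79 without sham 1 and 101 without ASC 1. Correlations of same-numbered deviations were 0.22, 0.06, 0.21 and -0.09, and libraries 1 and 3 alone correlated best with their own number. So few values cannot decide whether the replicate numbers pair the libraries. With a replicate block 169 genes were called, 4 of them mitochondrial, mt-Tn being added. The difference in mitochondrial share, 0.174 percentage points, was 0.0709 to 0.282 on leaving out 1 library and 0.387 without crystallins in the totals. Signs turned for small changes. With library totals mt-Nd4l was at -0.078 and mt-Tp at -0.14. mt-Tp was at -0.015 with upper quartile scaling, -0.0060 without the filter and -0.0079 with the replicate block. Leaving out libraries gave -0.29 to 0.33 for mt-Nd4l and -0.11 to 0.12 for mt-Tp. Scaled to the mitochondrial mRNAs, an alternative chosen after seeing the data, mt-Nd4l was at -0.12, mt-Tp at -0.25, mt-Co1 at -0.021, mt-Nd4 at -0.059 and mt-Nd6 at -0.10, and 605 genes were called (94 higher, 511 lower). The cause was not tested for any of these. Of 518 values for single genes under the alternatives, 478 kept their direction and side of the threshold. Counts were too few to test 10 of the 22 tRNAs.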

Other observations

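Lars2 encodes the enzyme that charges mitochondrial leucine tRNAs, mt-Tl1 among them. Counts assigned to Lars2 varied between libraries far more than between groups. They were at 480, 186, 102 and 2135 CPM in sham libraries 1 to 4 and at 209, 378, 102 and 1659 CPM in ASC libraries 1 to 4. The log2 fold change was -0.31. The library numbered 4 was the highest in each group. mt-Tl1 was at 2.23 CPM in sham 4 and at 12.2 CPM in ASC 4. Whether the counts assigned to Lars2 measure the enzyme's mRNA was not tested, nor was any link to mt-Tl1.

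Among the nuclear copies, Gm10222 and Gm28438, which match mt-Nd4l and mt-Nd3, had log2 fold changes of 0.99 (edgeR adjusted p = 0.155) and 1.07 (edgeR adjusted p = 0.370). The mitochondrial genes themselves were at 0.11 and 0.36. For Gm28661 and mt-Co2 the values were 0.33 and 0.26, and for Gm10925 and mt-Atp6 they were 0.22 and 0.26.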
